A study of Mus musculus with 6 samples.

Results

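The genes described here are the TAM receptors Axl and Mertk, their ligands Gas6 and Pros1, the bridging protein Mfge8, the integrin subunits Itgav and Itgb5, and the phagocytic receptor Megf10. They were chosen by name for their role in the recognition of apoptotic cells, with no measured value in the rule. Earlier results of these data were known when they were chosen. All 8 of 8 were among the 15912 genes of the deposited table, and 7 had enough reads to be tested, with Megf10 left out. They were measured by RNA sequencing of microglia, the resident macrophages of the brain, from hippocampi of male C57BL/6 mice aged 3 months. Every mouse whose libraries are used here had received LPS (lipopolysaccharide, an inflammatory component of bacterial walls) at 1 mg/kg into the peritoneum for 4 days, with tissue taken 24 h after the last dose. Saline-treated mice are not analysed here, so no value below measures the effect of LPS. A sample pooled the hippocampi of 2 mice. About 10000 live CD11b+ cells with low CD45, the usual microglia gate, were collected, and the neutral lipid dye BODIPY separated cells with few lipid droplets (BODIPY-low, 3 libraries) from cells with many (BODIPY-high, 3 libraries). The libraries of a gate carry the numbers 1, 2 and 3, and same-numbered libraries of the gates deviated together, so they are also compared as 3 pairs.

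Cells that die by apoptosis expose phosphatidylserine on their surface. Gas6 and protein S, the product of Pros1, bind this lipid through a domain that needs vitamin K-dependent carboxylation, and bridge it to the TAM receptor tyrosine kinases Tyro3, Axl and Mertk on the phagocyte. MFG-E8, the product of Mfge8, bridges the same lipid to integrins that hold the alpha-v subunit, such as that of Itgav and Itgb5. In brain macrophages Mertk is known as a gene of the resting state, whereas Axl is known to be induced in inflammation and in microglia that respond to disease.

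The libraries held 34899413 to 39220494 reads, recovered as whole numbers from the deposited normalized counts, which are gene counts divided by a size factor per library. All 10 listed microglia markers were detected, with summed levels of 2396070 to 2837710 normalized counts in the BODIPY-low and 1874890 to 2593940 in the BODIPY-high libraries. None passed limma with the gate alone. Their log2 change (BODIPY-high against BODIPY-low) was positive for 0 of 10, beside 49.2% of all tested genes, with a median of -0.21. Some markers of other cells were higher in the BODIPY-high libraries. The 11 markers of border-associated macrophages summed to 2623 to 7655 normalized counts in BODIPY-low and 23099 to 86138 in BODIPY-high libraries, and BODIPY-high library 3 was highest. All 11 had a positive log2 change, and 9 passed limma with the gate alone as higher, beside 2.03% of all tested genes. The 8 choroid plexus markers summed to 303 to 2230 against 39159 to 51437, and all 8 passed the same test as higher. Of these, Aqp1 reached 10 normalized counts in BODIPY-high libraries alone, so its call is no support. Since RNA was taken from sorted bulk cells, a change in the number of cells of a type and a change in RNA per cell cannot be told apart. Changes of the members without BODIPY-high library 3 are given below beside those with it.

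The upstream sequences of Gas6 and Axl are shown because these were the members whose levels passed a test in at least 1 model. Each is the 250 bases before the RefSeq transcript start in build GRCm38.p6, 5′ to 3′ on the minus strand on which the gene lies, with the letters GGGCGG or their reverse complement CCGCCC, a GC box, in capitals. Gas6 is at chr8:13494536-13494785 and Axl at chr7:25788734-25788983.
Gas6: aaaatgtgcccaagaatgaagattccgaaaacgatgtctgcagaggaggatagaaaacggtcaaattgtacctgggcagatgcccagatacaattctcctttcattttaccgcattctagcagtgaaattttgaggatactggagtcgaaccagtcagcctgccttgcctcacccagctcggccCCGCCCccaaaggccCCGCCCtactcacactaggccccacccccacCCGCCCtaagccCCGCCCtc
Axl: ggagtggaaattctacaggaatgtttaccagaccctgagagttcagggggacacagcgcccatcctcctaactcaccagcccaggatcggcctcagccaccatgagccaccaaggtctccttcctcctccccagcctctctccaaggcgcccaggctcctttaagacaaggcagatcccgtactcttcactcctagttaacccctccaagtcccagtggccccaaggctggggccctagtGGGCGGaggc
The Gas6 window held 4 GC boxes, the farthest starting 66 bases before the start site and the nearest 8 bases before it. The Axl window held 1, starting 10 bases before the start site. At least 1 GC box stood in 32.7% of the 32851 RefSeq promoters of this length, on either strand. Of the members, 7 had a RefSeq promoter, namely all except Megf10, and among these the count ran from 0 in Itgav to 5 in Pros1, where some overlap. Neither the AP-1 motif TGANTCA nor the E box CACGTG was in the window of any of these members, against 6.75% and 6.02% of all promoters. The G and C content was 54.8% for Gas6 and 60% for Axl, beside a median of 52.4% over all promoters. These matches describe letters only.

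Of the 7 tested members, Gas6 and Axl had the largest log2 changes between gates. Both were higher in the BODIPY-high library of 3 of 3 pairs, as were 20.7% of all tested genes. The receptor Mertk, the ligand Pros1 and both integrin subunits differed by less than the spread between libraries. The test was limma on log2(normalized count + 1) across 12767 genes, and a call is a Benjamini-Hochberg adjusted p under 0.05. With the gate as the only term, limma called 0 of 7 members higher, beside 2.03% of all tested genes, and 0 lower, beside 0.0235%. At an unadjusted p under 0.05, 1 member was higher, beside 8.03% of genes, and 0 were lower, beside 2.27%. With the pair as a block, limma called 2 members higher, Gas6 and Axl, beside 4.37% of genes, and 0 lower, beside 0.462%. DESeq2 on the recovered reads called 1 higher, Gas6, beside 3.63% of genes, and 0 lower, beside 0.251%. With edgeR 0 members were called, beside 223 of the 12767 genes. The median log2 change of the 7 members was -0.02, against -0.004 over all tested genes. Nothing in the labels states that samples of a gate came from separate pools of mice, so the p-values cover only the spread among these samples.

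**Figure D1:**
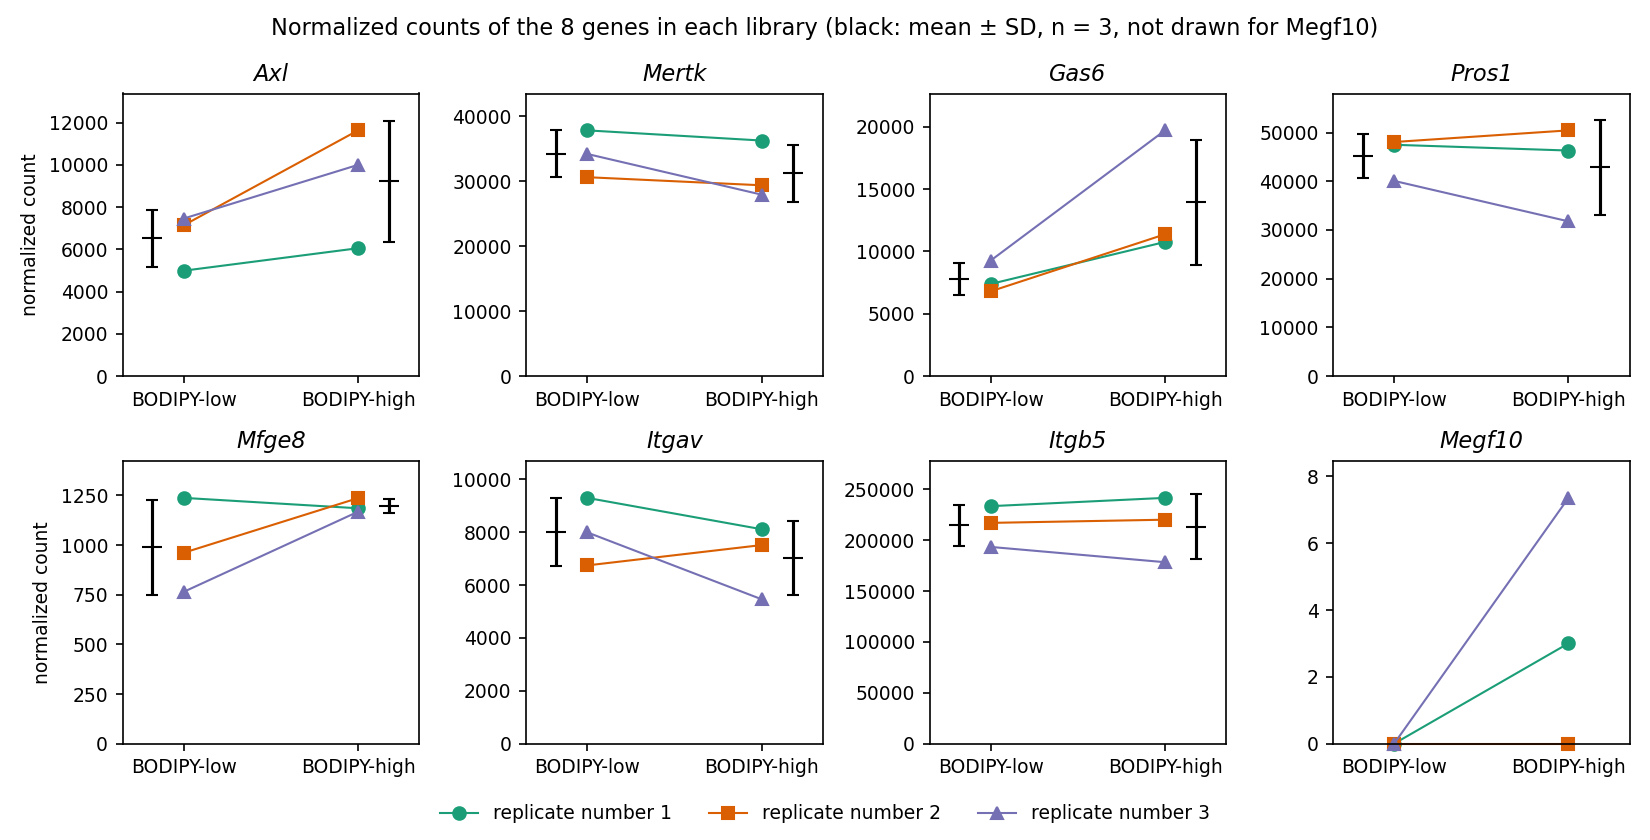
Normalized count (vertical axes, from 0) of each of the 8 genes in the BODIPY-low and BODIPY-high libraries. Lines join libraries of the same replicate number, and black marks are the mean ± SD of 3 libraries. Gas6 lies between 6800 and 9267 in BODIPY-low and between 10760 and 19705 in BODIPY-high libraries, whereas the gates overlap for the other tested genes.

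Axl, the TAM receptor that Gas6 binds most strongly, lies at chromosome 7, 25757273 to 25788705, minus strand (mm10, GENCODE M21). It measured 4993, 7144 and 7463 normalized counts in BODIPY-low libraries 1, 2 and 3. In BODIPY-high libraries 1, 2 and 3 it measured 6058, 11638 and 10005. Libraries numbered 1 were the lowest of both gates, and the gates overlap because BODIPY-high library 1 lay below BODIPY-low libraries 2 and 3. The means were 6533 ± 1343 and 9234 ± 2869 (SD, n = 3), a ratio of 1.41, and within pairs the ratios were 1.21, 1.63 and 1.34. The log2 change was 0.47 (SE 0.24, 95% interval -0.08 to 1.01) with a limma adjusted p of 0.578. Dropping 1 BODIPY-high library gave 0.75 for library 1, 0.28 for library 2 and 0.38 for library 3, and dropping BODIPY-low library 1 gave 0.29. With the pair as a block the interval narrowed to 0.27 to 0.67 and the adjusted p was 0.0154. The blocked call held without the libraries numbered 1 (limma adjusted p = 0.000735) and without those numbered 3 (0.0456), and was lost without those numbered 2 (0.0732).

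Mertk, a receptor through which macrophages engulf apoptotic cells, lies at chromosome 2, 128698956 to 128802894, plus strand. Its normalized counts were 37839, 30631 and 34212 in the BODIPY-low libraries and 36275, 29385 and 27946 in the BODIPY-high libraries. The gates overlap, although each BODIPY-high library was below its same-numbered partner, with pair ratios of 0.959, 0.959 and 0.817. Over all tested genes, 19% were likewise higher in 0 of 3 pairs and 20.7% in 3 of 3 pairs, as Axl and Gas6 were. The log2 change of Mertk was -0.14 (95% interval -0.43 to 0.15, limma adjusted p = 0.826), and the blocked interval ran from -0.31 to 0.03. Dropping BODIPY-high library 3 gave -0.06 and library 1 of that gate -0.25, and dropping BODIPY-low library 1 gave -0.06 and library 2 of that gate -0.21.

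Per kilobase of exon, Mertk was the main TAM receptor transcript of every library. Tyro3, the remaining TAM receptor, had 0 reads in every BODIPY-low library. It had 58.1, 37.9 and 63.5 normalized counts in BODIPY-high libraries 1, 2 and 3, from 165 reads in all. Set against a floor of 3 reads over the BODIPY-low gate, the Tyro3 reads of the BODIPY-high gate gave a ratio of 50.4. The exact 95% lower limit of the ratio, which covers counting error only, was 40.5. Tyro3 entered the test only through the gate where it is high, so it had to differ there. Its limma adjusted p of 0.00658 (with the block 0.00277) is given as a description. That p passed 0.05 but did not do so without BODIPY-high library 2 (0.0646) or BODIPY-high library 3 (0.0530). Even so, Tyro3 made up only 0.0672 to 0.121% of the summed per-kilobase level of the TAM receptors in BODIPY-high libraries. Axl made up 10.2, 16.7 and 15.8% of that sum in BODIPY-low libraries 1, 2 and 3, and 12.6, 25.4 and 23.5% in the BODIPY-high libraries. The share of Axl was higher in each BODIPY-high library than in its partner, and the gates overlap. The log2 ratio of the Axl to the Mertk normalized count within a library was -2.41 ± 0.45 in BODIPY-low and -1.80 ± 0.68 in BODIPY-high libraries (SD, n = 3), a difference of 0.61. Dropping 1 BODIPY-high library gave 0.997 for library 1, 0.37 for library 2 and 0.45 for library 3, and dropping BODIPY-low library 1 gave 0.35. Its exact two-sided permutation p was 0.3, also 0.3 adjusted over the 3 ratios compared, where 3 libraries against 3 cannot go below 0.1. Flipping signs within pairs gave an exact p of 0.25, the smallest that 3 pairs allow.

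Gas6, the ligand of all TAM receptors, lies at chromosome 8, 13465374 to 13494490, minus strand. Its normalized counts were 7390, 6800 and 9267 in BODIPY-low libraries 1, 2 and 3. In BODIPY-high libraries 1, 2 and 3 they were 10760, 11373 and 19705. The gates did not overlap, which held in the higher direction for 1 of 7 members and for 10.4% of tested genes, and in the lower direction for 0 of 7 members and 5.95% of genes. Library 3 was the highest of both gates. The means were 7819 ± 1288 and 13946 ± 4997 (SD, n = 3), a ratio of 1.78, and the pair ratios were 1.46, 1.67 and 2.13. The log2 change was 0.79 (SE 0.22, 95% interval 0.29 to 1.29), which did not pass with the gate alone (limma adjusted p = 0.163, edgeR 0.174). It passed with the pair as a block (limma adjusted p = 0.00161, interval 0.57 to 1.01) and with DESeq2 (adjusted p = 0.00388). Without BODIPY-high library 3 the log2 change was 0.51 and the limma adjusted p 0.197. In the blocked model without both libraries numbered 3, Gas6 had a log2 change of 0.64 and rose (limma adjusted p = 0.00309), and it also rose without those numbered 1 (1.68e-07) or 2 (0.0100). Gas6 shares 34 exonic bases with Tmem255b on the opposite strand, and the kits used do not keep strand. Tmem255b had 0 normalized counts in 4 libraries and 10.97 and 7.36 in BODIPY-high libraries 2 and 3, levels far below those of Gas6.

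Pros1, which encodes protein S, a ligand of Mertk and Tyro3, lies at chromosome 16, 62854307 to 62929346, plus strand. It had normalized counts of 47487, 48054 and 40075 in the BODIPY-low and 46304, 50443 and 31768 in the BODIPY-high libraries. Library 3 was the lowest of both gates, the reverse of its place for Gas6, and the gates overlap. The log2 change was -0.10 (95% interval -0.49 to 0.29, limma adjusted p = 0.916, with the block 0.617), and it was 0.10 without BODIPY-high library 3. As a share of the summed per-kilobase level of both ligands, Gas6 was 19.98, 18.5 and 27.1% in BODIPY-low libraries 1, 2 and 3, and 27.2, 26.6 and 49.9% in the BODIPY-high libraries. Pros1 was therefore the larger ligand transcript in 5 libraries, and both were near equal in BODIPY-high library 3, with 7733 per kilobase for Gas6 and 7771 for Pros1. The log2 ratio of the Gas6 to the Pros1 normalized count was -2.54 ± 0.38 and -1.65 ± 0.83 (SD, n = 3), a difference of 0.89 that was positive in 3 of 3 pairs. Without BODIPY-high library 3 the difference was 0.41, less than with all libraries by over 1.5 times. Its exact two-sided permutation p was 0.2 (0.3 adjusted over the 3 ratios), and the exact paired p was 0.25.

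Mfge8, which encodes the bridge between phosphatidylserine and alpha-v integrins, lies at chromosome 7, 79133768 to 79149060, minus strand. It had 1238, 961 and 764 normalized counts in the BODIPY-low and 1185, 1236 and 1168 in the BODIPY-high libraries. The BODIPY-low libraries were spread widely and BODIPY-low library 1 was the highest of all 6, so the gates overlap. The means were 988 ± 238 and 1196.5 ± 35.6 (SD, n = 3). Mfge8 had a log2 change of 0.30 (95% interval -0.09 to 0.70, limma adjusted p = 0.642, with the block 0.285). Among the BODIPY-low libraries, dropping library 1 gave 0.48 and library 3 gave 0.13, and dropping BODIPY-high library 3 gave 0.32.

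Itgav, the alpha-v integrin subunit, lies at chromosome 2, 83724397 to 83806916, plus strand, and shares 634 exonic bases with an antisense gene that the table does not list, so reads of that stretch cannot be assigned. It had 9301, 6745 and 7997 normalized counts in the BODIPY-low and 8114, 7514 and 5465 in the BODIPY-high libraries, with BODIPY-high library 3 the lowest. Itgav had a log2 change of -0.20 (95% interval -0.57 to 0.18, limma adjusted p = 0.797, with the block 0.423). Among the BODIPY-high libraries, dropping library 3 gave -0.03 and library 1 gave -0.31, and among the BODIPY-low libraries, dropping library 1 gave -0.08 and library 2 gave -0.31. Itgb5, the beta-5 subunit that pairs with alpha-v, lies at chromosome 16, 33829665 to 33949338, plus strand. It had 233475, 217045 and 193415 normalized counts in the BODIPY-low and 241633, 220170 and 178394 in the BODIPY-high libraries. In both gates library 1 was the highest and library 3 the lowest, and the differences between numbers were larger than those between gates. Its log2 change was -0.02 (95% interval -0.37 to 0.34, limma adjusted p = 0.990, with the block 0.953), and it was 0.11 without BODIPY-high library 3. Itgb5 ranked 14 to 18 among all genes by normalized count and took 0.495 to 0.640% of the reads of a library. The log2 ratio of Itgb5 to Itgav was 4.75 ± 0.22 in BODIPY-low and 4.93 ± 0.08 in BODIPY-high libraries (SD, n = 3), a difference of 0.18 with an exact two-sided permutation p of 0.3 (0.3 adjusted over the 3 ratios). Among the BODIPY-low libraries, dropping library 2 gave a difference of 0.31 and library 3 gave 0.10.

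Megf10, a receptor for apoptotic debris known mainly from astrocytes, lies at chromosome 18, 57133090 to 57297467, plus strand. It had 0 reads in every BODIPY-low library and 3, 0 and 8 reads in BODIPY-high libraries 1, 2 and 3. Set against a floor of 3 reads over the BODIPY-low gate, these reads gave a ratio of 3.36. The exact 95% lower limit of the ratio, which covers counting error only, was 2.30. Reads came from 2 of 3 BODIPY-high libraries and no test was made. Limma with the gate alone called 4 of 8 tested astrocyte markers higher, beside 2.03% of all tested genes, and the median log2 change of the list was 2.17. Of these 4, Atp1b2 reached 10 normalized counts in BODIPY-high libraries alone, so its call is no support. The list summed to 10921 to 11909 normalized counts in BODIPY-low and 12768 to 14595 in BODIPY-high libraries, mostly from Slc1a3, a glutamate transporter gene with a log2 change of -0.04. Clu, which encodes clusterin, had 36.2, 46.4 and 115 normalized counts in the BODIPY-low and 1290, 1998 and 2304 in the BODIPY-high libraries. Its log2 change of 4.94 was the largest among the tested genes of this list. The part of such cells in the reads of Megf10 was not tested.

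**Figure D2:**
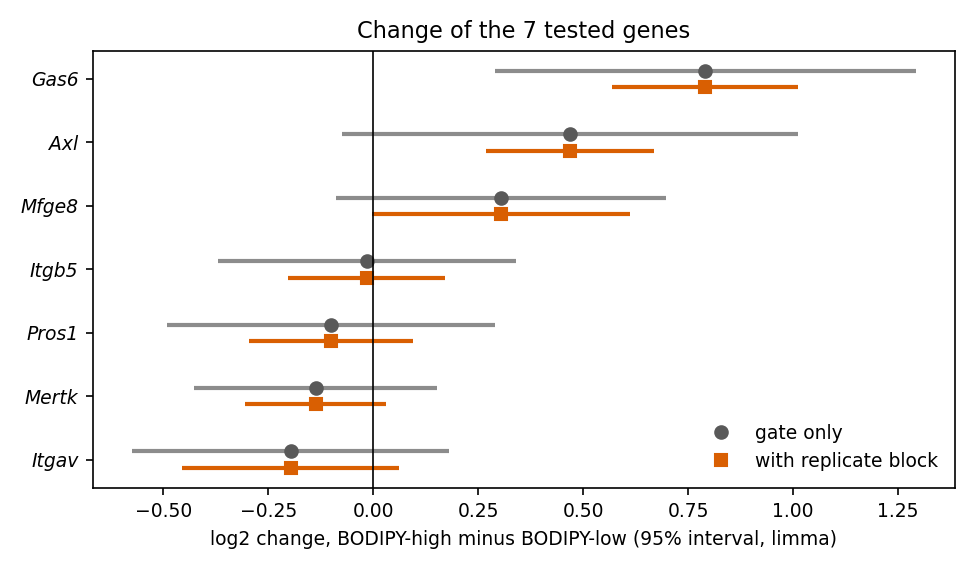
Log2 change of the 7 tested genes, BODIPY-high minus BODIPY-low (horizontal axis), with 95% intervals from limma with the gate alone (grey circles) and with the replicate number as a block (orange squares). The Gas6 interval is 0.29 to 1.29 with the gate alone, and the Axl interval clears 0 only with the block, at 0.27 to 0.67.

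Compared per kilobase of exon, levels of the members spanned a wide range. Averaged over 6 libraries, Itgb5 stood at 60237 ± 6757 normalized counts per kilobase (SD), followed by Pros1 at 10768 ± 1696 and Mertk at 7545 ± 919. Gas6 followed at 4271 ± 1837, Axl at 1566 ± 495, Itgav at 700.2 ± 122 and Mfge8 at 233 ± 40.5. Each gene lay above the next in 6 of 6 libraries, except that Mertk lay above Gas6 in 5 of 6, with the order turned in BODIPY-high library 3. Itgb5 was above its partner subunit Itgav in every library. These levels depend on the union of annotated exons as the gene length.

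**Figure D3:**
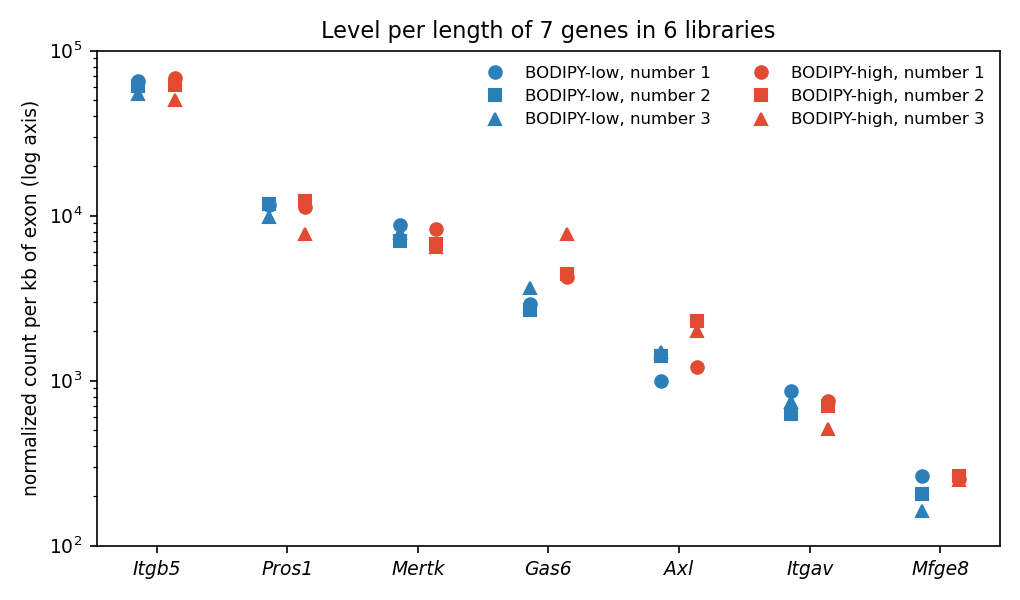
Normalized count per kilobase of exon (vertical axis, log scale) of 7 genes in the BODIPY-low (blue) and BODIPY-high (red) libraries, with marker shape for the replicate number. The genes are ordered by their mean over 6 libraries, from Itgb5 at 60237 to Mfge8 at 233, and Gas6 in BODIPY-high library 3, at 7733, lies above Mertk.

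Gas6, Axl and Tyro3 stood beside markers of other cells as follows. The summed border-associated macrophage markers were 3391, 2623 and 7655 normalized counts in BODIPY-low libraries 1, 2 and 3, and 23099, 30472 and 86138 in the BODIPY-high libraries, a ratio of means of 10.2. Like Gas6, this sum was highest in library 3 of each gate, and so were the summed oligodendrocyte, fibroblast and neutrophil markers. Axl was highest in BODIPY-high library 2, as were the summed choroid plexus and mural cell markers. For Axl the libraries numbered 1 were the lowest of both gates, as for the summed choroid plexus, monocyte and neutrophil markers. Tyro3 was highest in BODIPY-high library 3. The most abundant border-associated macrophage markers were Mrc1, the mannose receptor, the endocytic adaptor Dab2 and the transglutaminase subunit F13a1. Mrc1 had 709, 579 and 2046 normalized counts in the BODIPY-low and 5833, 7743 and 23101 in the BODIPY-high libraries. No border-associated macrophage marker was at 0 throughout a gate. The summed choroid plexus markers, led by Enpp2, Ttr and Clic6, had a ratio of means of 47.5, and none was at 0 in every BODIPY-low library, although Folr1 and Sostdc1 were at 0 in 1 of them and Kcne2 and Aqp1 in 2, genes named after their values were seen. The part of these cells in the levels of Gas6, Axl and Tyro3 was not tested.

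**Figure D4:**
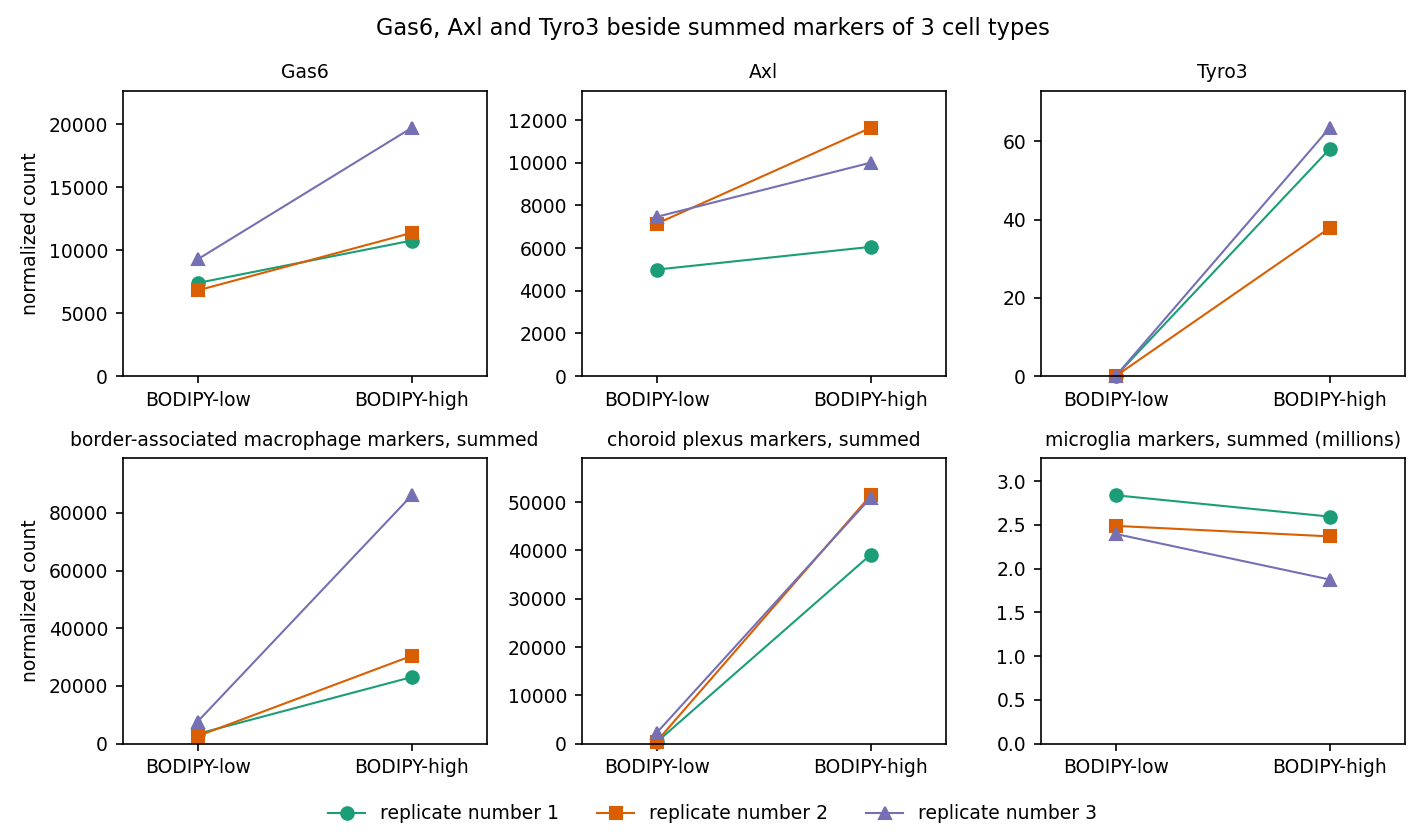
Normalized counts (vertical axes, from 0) of Gas6, Axl and Tyro3 and the summed markers of border-associated macrophages, choroid plexus and microglia in each library, with lines joining libraries of the same number. Gas6 and the border-associated macrophage sum share their highest library, BODIPY-high library 3, at 19705 and 86138, whereas the microglia sum is lowest there, at 1874890. The oligodendrocyte, oligodendrocyte precursor, fibroblast, monocyte and neutrophil sums, not drawn, were also highest in that library.

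The remaining lists of this pathway held 75 genes, of which 67 were tested, 3 were called higher and 0 lower by limma, beside 2.03% and 0.0235% of all tested genes. With the block 8 were called higher and 0 lower, beside 4.37% and 0.462%. At an unadjusted p under 0.05, 10 were higher and 3 lower, beside 8.03% and 2.27% of genes. DESeq2 called 6 higher and 1 lower, beside 3.63% and 0.251%, and edgeR called 2, beside 223 of all 12767 tested genes. The median log2 change was 0.02. The 3 called higher were Tyro3, the adaptor Bcar1 and the scavenger receptor Cd36. Tyro3 and Edil3 were the tested genes of these lists that reached 10 normalized counts in BODIPY-high libraries alone, so their calls are no support for a change of the lists. The counts of the single lists below are read against the same shares.

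The enzymes of the vitamin K cycle, which carboxylate Gas6 and protein S, gave 0 calls of 3 in limma, with or without the block, in edgeR and in DESeq2. At an unadjusted p under 0.05, 1 was lower. This was Vkorc1l1, a vitamin K epoxide reductase, at 981, 938 and 980 normalized counts in the BODIPY-low and 762, 844 and 728 in the BODIPY-high libraries (log2 change -0.32, limma adjusted p = 0.399). The log2 change was -0.15 for the reductase Vkorc1 and 0.10 for the carboxylase Ggcx.

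In the list of 14 genes that holds Tyro3 and the shedding and signalling genes, no gene apart from Tyro3 passed, and the median log2 change was 0.04. Pik3r1, the regulatory subunit of phosphoinositide 3-kinase, had a log2 change of -0.30 (limma adjusted p = 0.458). Adam10 and Adam17, proteases that cut TAM receptors from the surface, had -0.06 and 0.08 and were named after their values were seen.

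Of 9 integrin partners and signalling genes, 7 were tested, Bcar1 rose, and the median log2 change was 0.04. Bcar1, also called p130Cas, a docking protein downstream of integrins, had 14.3, 6.19 and 9.48 normalized counts in the BODIPY-low libraries. In the BODIPY-high libraries it had 49.0, 63.8 and 85.5, with no overlap (log2 change 2.64, limma adjusted p = 0.0346, with the block 0.0173). Its call was lost when any 1 library was left out (0.0576 to 0.182), and in the blocked model without the libraries numbered 2 (0.0897) or 3 (0.115). The focal adhesion kinase Ptk2 had a log2 change of 0.74 (limma adjusted p = 0.519), and the transglutaminase Tgm2, which works with MFG-E8, had -0.18 (0.660). Itgb8 and Itgb6, further partners of alpha-v, had 0 reads in the BODIPY-low gate and 75 and 7 reads in the BODIPY-high gate, and were not tested. They were named after their values were seen.

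Of 18 other receptors for apoptotic cells, 17 were in the table and 15 tested, and the median log2 change was -0.07. Limma called 1 higher and 0 lower, and with the block 3 higher. Cd36, a receptor of oxidized lipids and apoptotic cells, had 46.1, 218 and 284 normalized counts in the BODIPY-low libraries. In the BODIPY-high libraries it had 753, 1560 and 3630, with no overlap (log2 change 3.5, limma adjusted p = 0.0452, with the block 1.51e-05). Leaving out 1 library moved its adjusted p to between 0.0395 and 0.182, and the call was lost without BODIPY-low libraries 1 (0.0753) or 2 (0.0989) and BODIPY-high libraries 2 (0.182) or 3 (0.1503). It was also lost with edgeR (0.0502) and with a pseudocount of 0.5 (0.0531). The Cd36 call held with DESeq2 (adjusted p = 0.00605). In limma it held with a pseudocount of 5 (0.0370), no filter (0.0331) or TMM scaling (0.0454). Timd4, the phosphatidylserine receptor TIM-4, had 0, 0 and 36.9 normalized counts in the BODIPY-low and 88.1, 129 and 542 in the BODIPY-high libraries. Its limma adjusted p was 0.0819 with the gate alone and 0.000907 with the block. Neither edgeR (adjusted p = 0.224) nor DESeq2 (adjusted p = 0.551) called Timd4. Cd300lb, a receptor of the CD300 family, had 105, 124 and 114 against 253, 191 and 450 normalized counts, with a limma adjusted p of 0.110 and of 0.0274 with the block. DESeq2 called Cd300lb (adjusted p = 0.00468) and edgeR did not (0.103). The blocked call of Cd300lb was lost without the libraries numbered 3 (0.203), while that of Timd4 held (0.00205). Trem2, a lipid receptor of microglia that was named after its values were seen, had 45508, 48000 and 51173 normalized counts in the BODIPY-low and 40140, 38525 and 40226 in the BODIPY-high libraries. Its gates did not overlap, and its log2 change of -0.28 passed DESeq2 (adjusted p = 0.0452) but not limma (0.278, with the block 0.0564). Cd36, Timd4 and Cd300lb were highest in BODIPY-high library 3. So were the summed markers of border-associated macrophages, oligodendrocytes and their precursors, fibroblasts, monocytes and neutrophils. The part of such cells in these differences was not tested.

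Of 12 other opsonins and bridging proteins, 10 were in the table and tested. Limma called 0, with 2 higher and 0 lower at an unadjusted p under 0.05, edgeR called 0 and DESeq2 2, and the median log2 change was 0.07. The blocked model called 3 higher: Edil3, Anxa5 and C3. Anxa5, which encodes the phosphatidylserine-binding annexin A5, had 1809, 2279 and 2527 normalized counts in the BODIPY-low and 2676, 3789 and 5541 in the BODIPY-high libraries. Those gates did not overlap, and the limma adjusted p was 0.195 with the gate alone and 0.00241 with the block. DESeq2 called Anxa5 (adjusted p = 0.00727) and edgeR did not (0.1845). Edil3, a relative of MFG-E8 that also binds alpha-v integrins, had 0, 0 and 4.21 against 19.02, 12.96 and 137 normalized counts (limma adjusted p = 0.115, with the block 0.0127, and 0.188 in the block without the libraries numbered 3). DESeq2 called Edil3 (adjusted p = 0.00295) and edgeR did not (0.142). Like Tyro3, Edil3 entered the test only through the gate where it is high. C3, the central complement component, was named after its values were seen and had 1731, 2714 and 4145 against 2681, 3603 and 7358 normalized counts (limma adjusted p = 0.684, with the block 0.00446). Neither edgeR (adjusted p = 0.683) nor DESeq2 (adjusted p = 0.855) called C3. Its log2 change was 0.62, and 0.21 without BODIPY-high library 3. Each BODIPY-high library lay above its partner, and the gates overlap. C1qa, a subunit of the opsonin C1q, had a log2 change of -0.26 (limma adjusted p = 0.502). The other subunits C1qb and C1qc, named after their values were seen, had -0.11 and -0.21. These 3 were lower in BODIPY-high without overlap of the gates, beside 5.95% of all tested genes. In the higher direction the gates were apart for 2 genes of the list, beside 10.4%.

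The machinery inside the phagocyte gave no call among the tested genes. Of 12 engulfment genes 11 were tested, and limma, the blocked model, edgeR and DESeq2 called 0, with 1 higher and 0 lower at an unadjusted p under 0.05. The log2 change was 0.30 for the DOCK partner Elmo2 (limma adjusted p = 0.331), -0.19 for the small GTPase gene Rhog and 0.20 for the Rac activator Dock2, and the median was 0.02. The untested gene, Gulp1, an adaptor of engulfment receptors named after its values were seen, had 3.29, 2.06 and 2.11 normalized counts in the BODIPY-low and 9.01, 63.8 and 22.99 in the BODIPY-high libraries, from 7 and 98 reads. All 7 phosphatidylserine scramblases and flippases were tested, with 0 called by each of these models, 0 at an unadjusted p under 0.05 and a median of -0.02. The scramblase gene Xkr8 had a log2 change of -0.27 (limma adjusted p = 0.531), Plscr1 0.25 and the flippase gene Atp8a1 -0.10.

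**Figure D5:**
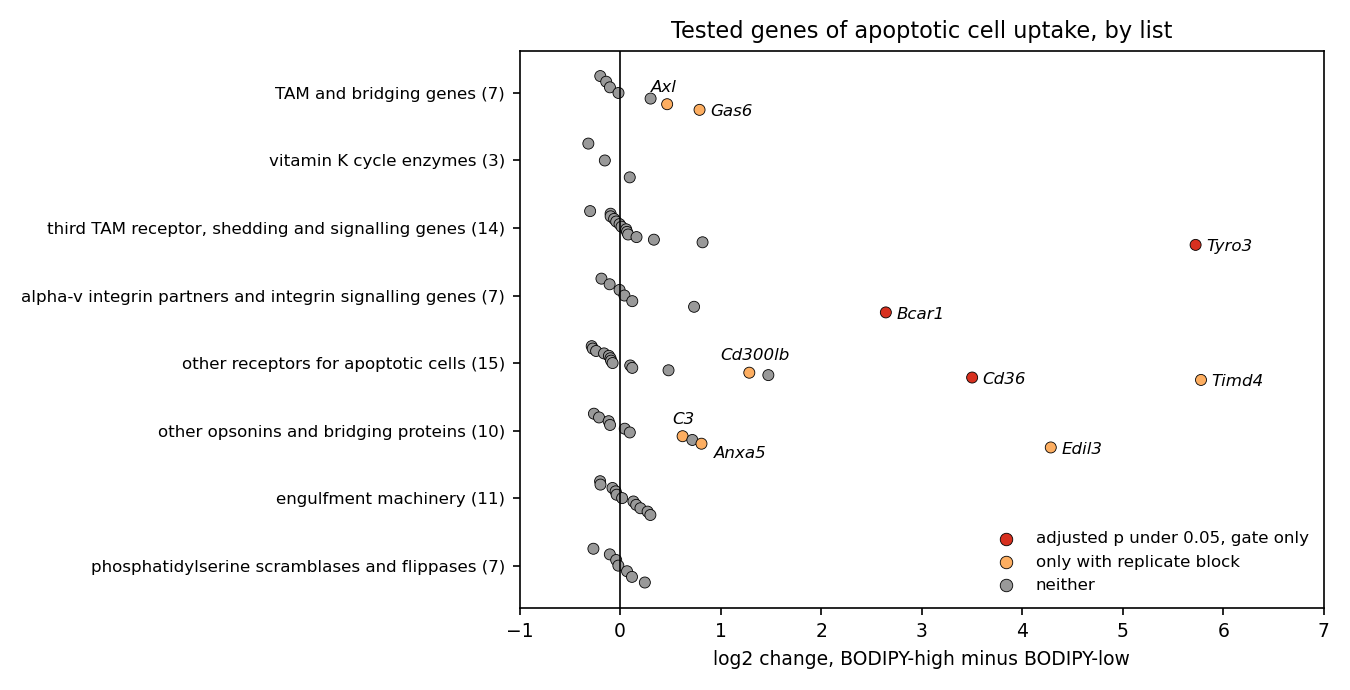
Log2 change, BODIPY-high minus BODIPY-low (horizontal axis), of the tested genes of each list, with 1 point per gene. Red points passed limma with the gate alone, orange points only with the replicate block, and grey points neither. The engulfment genes lie between -0.20 and 0.30 and the scramblases and flippases between -0.27 and 0.25, and Tyro3, Timd4 and Edil3, which had 0 reads in at least 2 BODIPY-low libraries, lie farthest to the right.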

How the data were processed

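Per the series' design text, the authors aligned reads to mm10 with STAR 2.5.3a after FastQC 0.11.4, counted with STAR and tested with DESeq2. The submitters' processing notes list mm9 and mm10. The annotation and strand column of the counting are not given in the sources used here. Deposited signal values are normalized counts, each gene's count over the library's size factor, as the authors made them. All values (100%) were whole multiples of 1 step within 0.05 of a read, so whole reads were recovered. A count of 0 allows 3 reads, worth 2.76 to 3.29 normalized counts, and such limits cover counting error only. Libraries of a gate differed beyond sampling noise (chi-square per degree of freedom at least 30.6).

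Genes with at least 10 normalized counts in 3 of 6 libraries were tested with limma 3.58.1 (R 4.3.3) on log2(normalized count + 1), two-sided, where folds of low genes are understated. The analysis was tested on simulated data. edgeR 4.0.16 and DESeq2 1.42.0 ran on recovered reads. Across genes, deviations of same-numbered libraries from their gate mean correlated at 0.244 to 0.363, and of different numbers at -0.255 to -0.0951. The labels give no origin of the numbers, so the pairing rests on this check. Members and the 7 pathway and 13 marker lists were chosen with earlier results of these data known. Named are all members, the 3 genes of smallest p of each pathway list, the 3 most abundant of each marker list, and the 2 genes nearest each member. Some single genes that this rule selects are not reported here.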

Additional observations from a re-analysis of the deposited data

How the results depend on the processing

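Other settings were a pseudocount of 0.5 or 5, no filter, TMM scaling, the replicate block, edgeR, DESeq2 and each library left out. The block without the libraries of 1 number was added after seeing the data. Members called higher were 0 with the gate alone, 2 with the replicate block and 1 with DESeq2, beside 2.03%, 4.37% and 3.63% of all tested genes. In the block without the libraries numbered 1, 2 and 3 they were 2, 1 and 2, beside 702, 346 and 279 of the 12767 tested genes. The pairing changed no other member's call. Genes called higher were 259 with the gate alone, 558 with the block (258 shared), 464 with DESeq2 and 702 in the block without the libraries numbered 1. Leaving out 1 library gave 15 to 271, with 135 and 117 without BODIPY-low library 1 or 2, and 169, 15 and 59 without BODIPY-high library 1, 2 or 3. Genes called lower were 3, against 59 with the block, 1 with edgeR, 32 with DESeq2, 80, 33 and 21 in the block without numbers 1, 2 and 3, and 0 to 2 with 1 library left out. Leaving out a library changed the sign of Pros1 (range -0.23 to 0.10) and Itgb5 (-0.11 to 0.11, reaching 0.05 when BODIPY-low library 1 and 0.11 when BODIPY-high library 3 was dropped), and in the block without number 3 they had log2 changes of 0.0168 and 0.0351. Axl, Gas6 and Mfge8 stayed positive, and Mertk and Itgav negative, in all 16 alternatives. The 3 ratios kept their direction in 9 of 9 alternatives each. The cause of these changes was not tested. Megf10, at 0 to 8 reads, had too few reads to be tested. Exact tests of 3 libraries against 3 cannot pass 0.05.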

Other observations

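The genes whose levels over the 6 libraries were most like each member, by the root mean square difference of centred log2 values among 9649 genes, were as follows. Gas6 was nearest to Sema6d, a semaphorin (0.0972), and Serpinb6a, a protease inhibitor (0.1004). Both were highest in BODIPY-high library 3, as Gas6 was, and passed limma with the replicate block (adjusted p = 0.0490 and 0.0255) but not with the gate alone (0.413 and 0.333). Axl was nearest to Cep128, a centriole gene (0.111), and Fas, the death receptor gene (0.117), and neither passed. Fas had 69.1, 108 and 121 normalized counts in the BODIPY-low and 83.1, 150 and 156 in the BODIPY-high libraries, so libraries numbered 1 were the lowest of both gates, as for Axl.

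Mertk lay within 0.0221 of Dock10 and 0.0241 of Nudt7, Itgb5 within 0.0236 of Inip and 0.0258 of Tmem181a, and Itgav within 0.0314 of Fam185a and 0.0363 of Arl15. Pros1 was nearest to Lhfpl2 (0.0431) and Rhbdd2 (0.0450), and Mfge8 to Bbs4 (0.0698) and Zbtb46 (0.0830). Megf10, with few reads, had no near gene: Cd300lb was at 0.614 and Reps2 at 0.616. These are descriptions over 6 libraries that share gates and numbers.

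Other marker lists are given by their calls and their summed levels, BODIPY-low against BODIPY-high. A marker that rose was called higher by limma with the gate alone, beside 2.03% of all tested genes. Of 6 tested oligodendrocyte markers, led by Cnp, Mbp and Mag, 1 rose, with sums of 7175 to 7265 against 8224 to 14440 normalized counts. Of 4 tested oligodendrocyte precursor markers 2 rose, at 4.13 to 29.6 against 82.8 to 336, Pdgfra was at 0 in BODIPY-low libraries, and both called genes, Pdgfra and Olig1, reached 10 normalized counts in BODIPY-high libraries alone. Of 3 tested mural markers 1 rose, Vtn, with list sums of 27.4 to 45.0 against 106 to 138. Limma with the gate alone called 0 of 10 endothelial markers (1685 to 2864 against 1533 to 2400), 0 of 5 monocyte markers (9887 to 24358 against 9215 to 31789) and 0 of 6 neutrophil markers (34719 to 112023 against 42216 to 163364). It also called 0 of 2 neuron markers, 0 of 1 fibroblast marker and 0 of the 2 gate antigens Itgam and Ptprc. At an unadjusted p under 0.05, 2 monocyte, 2 neutrophil and 1 neuron marker were higher, edgeR called 0 in these lists, DESeq2 called 1 neutrophil marker, and the blocked model called 2 neutrophil markers higher. Of the microglia markers, among them Csf1r and Cx3cr1, limma with the gate alone and edgeR called 0, 1 was lower at an unadjusted p under 0.05, and DESeq2 called 1. The blocked model called 1 lower, Olfml3, named after its values were seen.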
